A study of Mus musculus with 9 samples.

Results

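Notch receptors, their ligands, repressors of the HES and HEY families and a proneural factor were followed in N2A cells, a mouse neuroblastoma line. The 9 genes are the receptors Notch1 and Notch2, the ligands Dll1, Dll3 and Jag1, the repressors Hes1, Hes6 and Hey1, and the proneural factor Neurog2. They were chosen by symbol, and all 9 were found among the 24318 genes of each of 2 expression tables. The cells were transfected by lipofection with a scramble siRNA, an siRNA against EXOSC3 (siEXOSC3) or an siRNA against DDX1 (siDDX1). EXOSC3 is a subunit of the RNA exosome, the ribonuclease complex that processes and degrades RNA, and DDX1 is a putative RNA helicase. RNA-seq was carried out on 3 libraries of each of the 3 conditions, 9 in all. The labels give the scramble cells as wild type, give all cells as untreated and name no other agent. The comparison is limited to partial depletion in a single cell line, and the sources do not say which of the EXOSC3 siRNAs listed in the methods was used for RNA-seq.

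In Notch signalling, a ligand of the Delta or Jagged family on one cell binds a Notch receptor on its neighbour. The receptor is then cleaved, and its intracellular part enters the nucleus, joins the DNA-binding protein RBPJ and switches on Hes and Hey genes, whose products repress proneural genes. Proneural factors such as NEUROG2 drive neuronal differentiation and raise Delta ligands in the same cell, so that a cell that differentiates signals to its neighbours to wait.

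The values are FPKM (fragments normalized to transcript length in kilobases and to the number of mapped fragments), a level that is scaled for transcript length and library size. The 2 knockdowns are in separate tables, each beside the same 3 scramble libraries and scaled on its own. Each knockdown was therefore set against scramble inside its table, and the 2 comparisons share their controls. No test was run across tables. The depth that a library reached is unknown, because FPKM carry no read numbers and the methods give only a target. Judged by the smallest steps of low genes, the relative depth lay between 0.827 and 1.2 of that of scramble replicate 1. The libraries were not strand-specific, so that reads of overlapping genes on opposite strands cannot be told apart. Exosc3 was at 6.84 ± 0.836 FPKM in siEXOSC3 cells against 44.1 ± 1.56 in scramble (mean ± SD, n = 3), which is 15.5% of the scramble mean. Ddx1 was at 30.5 ± 3.73 FPKM in siDDX1 cells against 125 ± 5.40 in scramble, or 24.4%. Both targets therefore fell in the libraries labelled for them. Exosc3 overlaps Dcaf10 on the opposite strand and Gm12585 on its own strand.

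Markers of sympathetic neuroblastoma were mostly detected. Of the 13 neuroblastoma markers, 12 passed the filter described below in each table. Th, the enzyme that starts catecholamine synthesis, did not pass it. It was at 1.004, 0.749 and 1.90 FPKM in siEXOSC3 cells against 0.223, 0.172 and 0.143 in scramble, and at 0.648, 0.425 and 0.393 in siDDX1 cells against 0.221, 0.171 and 0.142, with every knockdown library above scramble. Of the neural progenitor markers, Sox1, Sox2 and Fabp7 were at 0 in every library of both tables, while Nes and Pax6 were detected, with scramble means of 7.39 and 3.44 FPKM. The summed level of the neuroblastoma markers was 966 to 1053 FPKM in siEXOSC3 cells against 576 to 634 in scramble, and 8 of the 12 tested markers rose (adjusted p under 0.05), beside 16.7% of all tested genes. Among them Chgb, a granin of secretory granules, rose from 120 to 359 FPKM (log2 fold change 1.56, adjusted p = 3.36e-04). In siDDX1 cells the sum was 571 to 635 FPKM against 571 to 627, and 1 of 12 markers, Chgb, rose, beside 5.61% of all tested genes. That call was lost without siDDX1 replicates 1 (adjusted p = 0.0721) or 2 (0.146) and without scramble replicates 1 (0.17), 2 (0.0559) or 3 (0.151), with no filter (0.0722), under quantile normalization (0.0973), without the intensity trend (0.063) and with a lower minimum and pseudocount of 0.1 (0.0506). The 7 neural progenitor markers, whose sum is nearly all Vim, summed to 609 to 695 FPKM in siEXOSC3 cells against 505 to 532 in scramble, with Vim and Msi1 up among the 4 tested markers, beside the same 16.7%. They summed to 439 to 471 FPKM in siDDX1 cells against 501 to 526, with 0 called. The call of Vim in siEXOSC3 cells was lost without siEXOSC3 replicate 1 (adjusted p = 0.0508), without scramble replicates 1 (0.0803), 2 (0.0732) or 3 (0.0528) and under quantile normalization (0.0663). That of Msi1 was lost without siEXOSC3 replicates 2 (0.0635) or 3 (0.0609), without scramble replicates 1 (0.119) or 2 (0.128) and with no filter (0.0779). In siDDX1 cells Vim was called lower without siDDX1 replicate 3 (0.0433) and under quantile normalization (0.0316). The summed level of 8 glial markers was 3.04 to 3.15 FPKM in siEXOSC3 cells against 3.16 to 3.66 in scramble, so that every siEXOSC3 library was lower, and 3.25 to 3.59 FPKM in siDDX1 cells against 3.14 to 3.62. Of these markers, Sox10 was at 49.5% and Aldh1l1 at 51.6% of its scramble mean in siEXOSC3 cells, each below scramble in every library. The summed level of 10 mesenchymal, endothelial and immune markers was 7.04 to 10.6 FPKM in siEXOSC3 cells against 4.84 to 6.20 in scramble and 6.14 to 7.04 FPKM in siDDX1 cells against 4.80 to 6.15. The endothelial marker Pecam1 took most of it and rose in siEXOSC3 cells, from a mean of 4.13 to 7.28 FPKM, while Col1a1 was at 0.474, 0.295 and 0.405 FPKM in siEXOSC3 cells against 0.165, 0.157 and 0.206 in scramble. The immune marker Cd68 was at 54.6% and the endothelial marker Cdh5 at 70.4% of its scramble mean in siEXOSC3 cells, with overlapping groups. The markers Col1a2, Lum and Kdr were at 0 in every library of both tables. The part of these shifts in the values below was not tested.

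In scramble cells the 9 genes fell into a group of 3 with means above 1 FPKM and a group of 6 with means below it. In the siEXOSC3 table the means were 8.91 FPKM for Hey1, 6.29 for Hes6 and 5.15 for Notch2. Hes1 followed at 0.409, Dll1 at 0.205, Notch1 at 0.198, Neurog2 at 0.0875, Dll3 at 0.0723 and Jag1 at 0.0378 FPKM. The scramble ranges of Dll1 and Notch1 overlapped, and so did those of Neurog2 and Dll3, while all other neighbours in this order were separated. Hey1 stood above 70.5% of all genes in the table, and Hes1 above 50.3%, since many genes are at 0. The siDDX1 table, which holds the same scramble libraries, gave the same order.

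**Figure D1:**
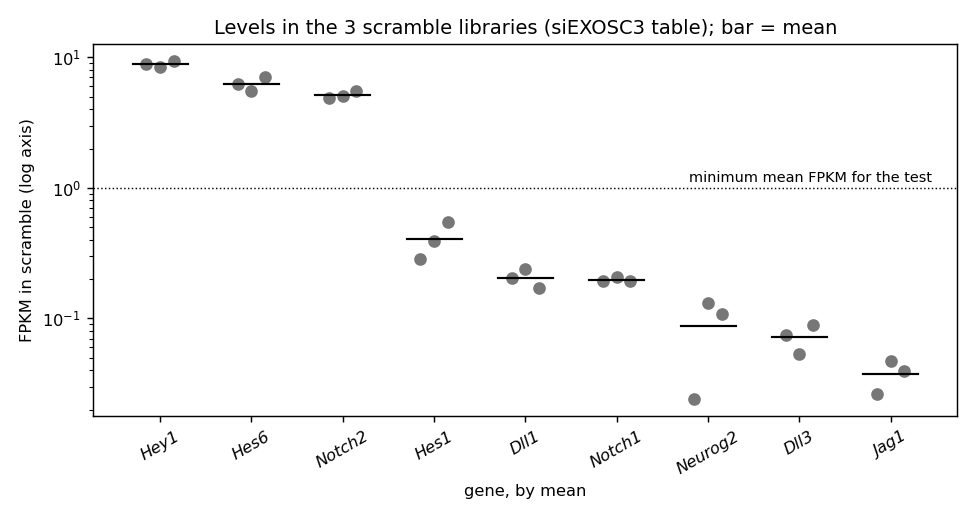
FPKM of the 9 genes in the 3 scramble libraries of the siEXOSC3 table, on a log axis, with each library as a point and the mean as a bar. Hey1, Hes6 and Notch2 lie above the dotted line at 1 FPKM and the other 6 genes lie below it, with Jag1 lowest at a mean of 0.0378 FPKM.

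Log2(FPKM + 1) was tested with limma over all genes whose mean was at least 1 FPKM over the 6 libraries of a table, which left 11242 genes for siEXOSC3 and 11104 for siDDX1. A gene is said to rise or fall where its Benjamini-Hochberg adjusted p is under 0.05. On this scale, the added 1 makes the changes of low genes look smaller than they are. Of the 9 genes, only Notch2, Hes6 and Hey1 passed this filter, in both tables. In siEXOSC3 cells 0 of these 3 rose, beside 16.7% of all tested genes, and 1 fell, Notch2, beside 15.7%. In siDDX1 cells 0 rose, beside 5.61%, and 0 fell, beside 5.03%. The 6 genes that were not tested are given by library, with an exact permutation test over libraries, two-sided, which with 3 against 3 cannot give a p below 0.1.

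**Figure D2:**
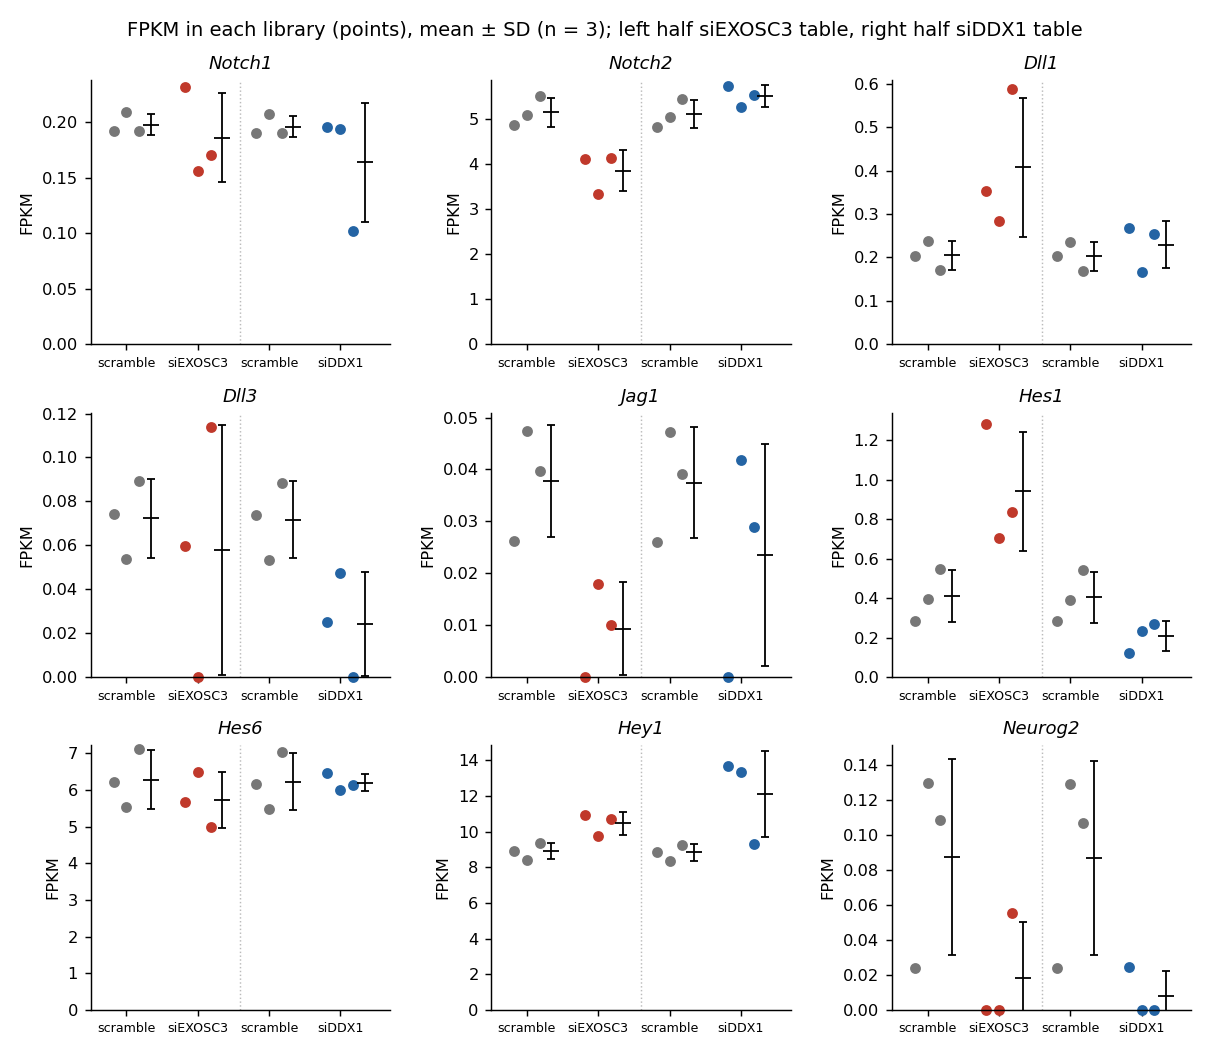
FPKM of each of the 9 genes by library (linear axes from 0), with the siEXOSC3 table on the left and the siDDX1 table on the right of each panel. Points are libraries, and the black mark with its bar is the mean ± SD of 3 libraries. Notch2 lies below scramble in siEXOSC3 cells, and Hes1 lies above scramble in siEXOSC3 cells and below it in siDDX1 cells.

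Notch2 encodes the receptor that made up most of the measured Notch receptor transcript in these cells. It lies on the plus strand at chr3:97817461-97954290 (mm9, from an annotation of the same assembly). It stood at 4.11, 3.33 and 4.13 FPKM in the siEXOSC3 libraries and at 4.86, 5.09 and 5.50 in the scramble libraries of that table. All siEXOSC3 libraries were lower than all scramble libraries. The mean was 74.9% of scramble, with a log2 fold change of -0.34 (SE 0.0994, adjusted p = 0.0306). The call was narrow. It was lost without siEXOSC3 replicate 1 (adjusted p = 0.0609), without scramble replicate 1 (0.0749), replicate 2 (0.0779) or replicate 3 (0.105), and when all genes were tested without a filter (0.0648), while the fold change stayed between -0.39 and -0.26 when any library was left out.

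In siDDX1 cells Notch2 was at 5.74, 5.27 and 5.55 FPKM, against 4.83, 5.05 and 5.44 in the same scramble libraries as scaled in that table. The groups overlapped, and the log2 fold change was 0.09 (SE 0.0807, adjusted p = 0.463). Notch2 thus fell in 1 of the knockdowns and was not called in the other, and the difference between the knockdowns was not tested.

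Notch1, the receptor best known from neural progenitors, was at 0.232, 0.156 and 0.170 FPKM in siEXOSC3 cells and at 0.192, 0.209 and 0.192 in scramble. The groups overlapped (exact permutation p = 0.8). After siDDX1 it was at 0.196, 0.193 and 0.102 FPKM against 0.190, 0.207 and 0.190 (exact permutation p = 0.6). Notch1 (chr2:26313423-26372183, minus strand) overlaps the genes 0610009E02Rik and Gm13568 on the opposite strand, whose reads may be counted with it.

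Notch3, itself a Notch target in several tissues, is given beside the members whatever its values. It was at 0.264, 0.121 and 0.301 FPKM in siEXOSC3 cells and at 0.0770, 0.0515 and 0.0538 in scramble, so that the siEXOSC3 libraries lay above the scramble libraries. With DDX1 depleted it was at 0.109, 0.176 and 0.0783 FPKM, against a highest scramble value of 0.0764. It did not pass the filter, and without a filter its adjusted p was 0.0524 in siEXOSC3 cells and 0.258 in siDDX1 cells. Notch3 overlaps Gm17276 on the opposite strand.

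As a share of the summed FPKM of the 4 Notch receptor genes, Notch2 made up 92.3, 91.1 and 93.7% in scramble replicates 1, 2 and 3. In siEXOSC3 cells the share was 84.0, 86.2 and 85.9%, below every scramble library. In siDDX1 cells it was 93.4, 91.9 and 95.7%, which overlapped scramble. The summed receptor level was 3.86 to 4.90 FPKM in siEXOSC3 cells against 5.27 to 5.87 in scramble, and 5.73 to 6.15 FPKM in siDDX1 cells against 5.23 to 5.81.

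Dll1 encodes a Delta ligand that proneural factors induce. It was at 0.353, 0.283 and 0.588 FPKM in siEXOSC3 cells and at 0.204, 0.238 and 0.172 in scramble. All 3 siEXOSC3 libraries were higher than all scramble libraries, with a mean 1.99 times that of scramble (exact permutation p = 0.1, the smallest that 3 against 3 libraries can give). In siDDX1 cells Dll1 was at 0.268, 0.167 and 0.253 FPKM against 0.203, 0.236 and 0.170, and the groups overlapped (exact permutation p = 0.6). Dll1 (chr17:15504318-15513836, minus strand) overlaps A930024N18Rik on the opposite strand.

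The depth behind such values can be judged from the steps in them. In a library, the values of a low gene are whole multiples of what 1 fragment is worth, and for 5 of the 9 genes the FPKM of all 9 libraries fell within 0.1 fragments or 1% of such multiples. If the smallest step is 1 fragment, Dll1 rested on 20, 19 and 35 fragments in siEXOSC3 cells, on 14, 15 and 13 in scramble and on 18, 12 and 21 in siDDX1 cells. Differences in fragment numbers also carry the differences in depth between libraries.

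Dll3 encodes a Delta family protein that acts inside the same cell rather than on neighbours. It was at 0.0599, 0 and 0.114 FPKM in siEXOSC3 cells against 0.0742, 0.0536 and 0.0893 in scramble, with overlapping groups. In cells depleted of DDX1 it was at 0.0252, 0.0472 and 0 FPKM against 0.0736, 0.0532 and 0.0882, where every siDDX1 library was lower (exact permutation p = 0.1, the smallest possible). By its steps, these values stand for 0 to 4 fragments per library.

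Jag1 encodes a Jagged ligand. It was at 0, 0.0178 and 0.0101 FPKM in siEXOSC3 cells against 0.0262, 0.0475 and 0.0396 in scramble, so that all siEXOSC3 libraries were lower (exact permutation p = 0.1, the smallest possible). The steps give 0, 2 and 1 fragments against 3, 5 and 5. The siDDX1 libraries held it at 0, 0.0418 and 0.0289 FPKM, and the groups overlapped.

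The ligand with the most transcript in these cells was Jag2, a Jagged family member outside the 9 genes. In the libraries of the siEXOSC3 table, Jag2 made up 81.6 to 87.4% of the summed FPKM of the Dll and Jag genes, with the Dlk genes left out. It was at 2.46, 2.19 and 3.31 FPKM in siEXOSC3 cells against 1.82, 1.82 and 1.59 in scramble, and rose with a log2 fold change of 0.40 (SE 0.13, adjusted p = 0.0446). The call was lost without any 1 of 5 libraries, which were siEXOSC3 replicates 1 and 3 and the 3 scramble replicates (adjusted p = 0.0897 to 0.132), and also under quantile normalization (0.143) and with no filter (0.0765). In siDDX1 cells Jag2 was at 1.495, 1.53 and 1.602 FPKM against 1.81, 1.80 and 1.58 (adjusted p = 0.51).

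Hes1 encodes a repressor that is among the best known direct targets of Notch and that also has inputs outside the pathway. It lies on the plus strand at chr16:30064470-30067882, and no other annotated gene overlaps it. It was at 1.28, 0.707 and 0.837 FPKM in siEXOSC3 cells and at 0.284, 0.395 and 0.547 in scramble. All siEXOSC3 libraries were higher than all scramble libraries, and the mean was 2.31 times that of scramble (exact permutation p = 0.1, the smallest possible). It stood in siDDX1 cells at 0.124, 0.232 and 0.267 FPKM against 0.282, 0.392 and 0.540, so that all siDDX1 libraries were lower, with a mean of 51.3% of scramble (exact permutation p = 0.1).

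By its steps, Hes1 rested on 26, 17 and 18 fragments in siEXOSC3 cells, on 7, 9 and 15 in scramble and on 3, 6 and 8 in siDDX1 cells. It stayed under the mean of 1 FPKM in both tables and was therefore not in the main test. When all genes with any signal were tested, its log2 fold change was 0.46 in siEXOSC3 cells (adjusted p = 0.0505) and -0.22 in siDDX1 cells (adjusted p = 0.171). With a minimum mean of 0.1 FPKM and a pseudocount of 0.1, a setting chosen after seeing the data, it rose in siEXOSC3 cells by 1.03 on the log2 scale (SE 0.291, adjusted p = 0.0331), and in siDDX1 cells its log2 fold change was -0.71 (SE 0.315, adjusted p = 0.188). The rise in siEXOSC3 cells thus depends on how low genes are treated, and the difference between the knockdowns was not tested.

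Hey1 encodes a repressor of the Hairy-related family that acts with or beside HES proteins, and it had the highest level of the 9 genes. It was at 10.9, 9.73 and 10.7 FPKM in siEXOSC3 cells against 8.92, 8.43 and 9.38 in scramble, a log2 fold change of 0.21 (SE 0.0783, adjusted p = 0.0701). After siDDX1 it was at 13.7, 13.3 and 9.30 FPKM against 8.85, 8.37 and 9.27, a log2 fold change of 0.40 (SE 0.133, adjusted p = 0.0904).

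All knockdown libraries lay above all scramble libraries for Hey1 in both tables, although the margin in siDDX1 replicate 3 was 9.30 against 9.27 FPKM. Hey1 did not pass the threshold in either comparison. Without siEXOSC3 replicate 2 it passed in siEXOSC3 cells (adjusted p = 0.031), and without siDDX1 replicate 3 it passed in siDDX1 cells (log2 fold change 0.56, adjusted p = 9.24e-04). Leaving out that siDDX1 library also raised the number of all genes called in that table from 1182 to 3524.

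Hes6 encodes a HES family protein that counteracts HES1 and that proneural factors induce. It was at 5.68, 6.50 and 4.98 FPKM in siEXOSC3 cells and at 6.22, 5.53 and 7.11 in scramble. The groups overlapped, and the log2 fold change was -0.12 (SE 0.115, adjusted p = 0.455). With DDX1 depleted it was at 6.46, 6.005 and 6.15 FPKM against 6.17, 5.48 and 7.03, with a log2 fold change of 0.00 (SE 0.0952, adjusted p = 1.0).

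Neurog2 encodes a proneural basic helix-loop-helix factor. It was at 0, 0 and 0.0552 FPKM in siEXOSC3 cells against 0.0240, 0.130 and 0.108 in scramble, with overlapping groups (exact permutation p = 0.2). In cells depleted of DDX1 it was at 0.0245, 0 and 0 FPKM against 0.0238, 0.129 and 0.107 (exact permutation p = 0.2). By its steps, Neurog2 rested on 1, 5 and 5 fragments in scramble, on 0, 0 and 2 in siEXOSC3 cells and on 1, 0 and 0 in siDDX1 cells.

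Counted by whether the groups overlap, 3 of the 9 genes (Dll1, Hes1 and Hey1) had all siEXOSC3 libraries above all scramble libraries, where 23.8% of all tested genes did. Notch2 and Jag1 had all of them below, where 25.9% of tested genes did. In siDDX1 cells Hey1 lay above, where 17.0% of tested genes did, and Dll3 and Hes1 lay below, where 17.8% did. Of these, Dll1, Hes1, Jag1 and Dll3 had means under 1 FPKM and are not among the tested genes.

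The genes whose profile over the 6 libraries of a table was most like that of Hes1 were found among the tested genes by Pearson's r of log2(FPKM + 1). In the siEXOSC3 table they were Zfyve28 (r = 0.99), Trappc2l (0.99) and Rabac1 (0.99), and in the siDDX1 table Slc12a5 (0.988), Wdr62 (0.983) and Cspp1 (0.982). For Neurog2 they were Sgta (0.992), Ltbp3 (0.977) and Zfp942 (0.972) in the siEXOSC3 table, and Chga (0.986), Tprn (0.982) and Scaf8 (0.975) in the siDDX1 table. Over the 6 libraries, 215 of 11242 genes had an r above 0.9 with Hes1 in the table of siEXOSC3 and 115 of 11104 in that of siDDX1. With Neurog2, 46 and 43 genes did. The points share libraries and depth, and the values are a description.

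The rest of the pathway was followed through 98 further genes in 10 lists by role, of which 97 were in the tables. In siEXOSC3 cells 71 of them were tested, 13 rose and 12 fell, with a median log2 fold change of 0.06 against -0.01 over all tested genes. In siDDX1 cells 68 were tested, 3 rose and 6 fell, with a median of 0.02 against -0.00059. As shares, 13 and 12 of 71 stand beside the 16.7 and 15.7% of all tested genes that rose and fell in siEXOSC3 cells, and 3 and 6 of 68 beside the 5.61 and 5.03% in siDDX1 cells. In siEXOSC3 cells 3 of the 71 genes (Mfng, Hey2 and Cbfa2t3) had a mean above the minimum of 1 FPKM in only 1 of the groups, and without them 12 of 68 rose and 12 fell. In siDDX1 cells 1 of the 68, Hey2, did, and without it 3 of 67 rose and 6 fell.

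**Figure D3:**
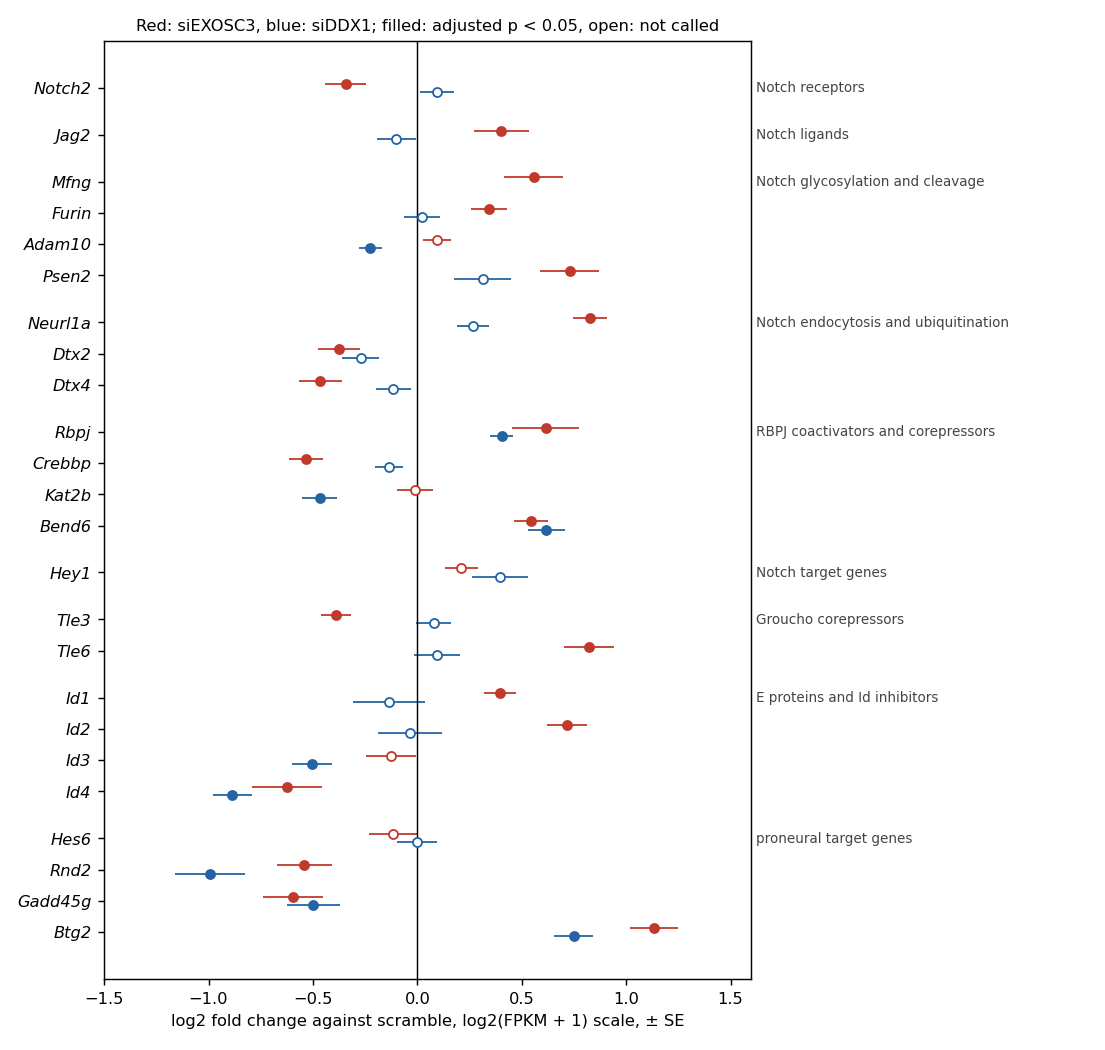
Log2 fold change against scramble on the log2(FPKM + 1) scale, with its standard error, for the genes named here that were tested in at least 1 table, ordered by role. Red stands for siEXOSC3 and blue for siDDX1, and filled points passed an adjusted p of 0.05. Rbpj, Bend6 and Btg2 were called higher and Id4, Rnd2 and Gadd45g lower in both comparisons, which share their scramble libraries.

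RBPJ is the DNA-binding protein that carries the Notch signal on chromatin and that represses the same genes while no signal arrives. Rbpj was at 48.7, 40.5 and 68.2 FPKM in siEXOSC3 cells against 33.8, 33.0 and 32.6 in scramble, and rose with a log2 fold change of 0.61 (SE 0.159, adjusted p = 0.0209). The spread among siEXOSC3 libraries was wide, and the call was lost without siEXOSC3 replicate 1 (adjusted p = 0.0543), without scramble replicate 1 (0.0646), replicate 2 (0.0615) or replicate 3 (0.0734) and with no filter (0.0571). In siDDX1 cells Rbpj was at 42.5, 45.7 and 43.1 FPKM against 33.5, 32.7 and 32.2, and rose by 0.40 on the log2 scale (SE 0.0572, adjusted p = 0.00777). That call was lost without scramble replicate 3 (adjusted p = 0.0505). In both tables every knockdown library lay above every scramble library.

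Of the 18 tested coactivators and corepressors of RBPJ, Rbpj included, 2 rose and 4 fell in siEXOSC3 cells, and 2 rose and 1 fell in siDDX1 cells, where 16.7 and 15.7% of all tested genes rose and fell in the first comparison and 5.61 and 5.03% in the second. Bend6, whose product binds RBPJ and restrains Notch targets, rose in siEXOSC3 cells from 9.69 ± 0.655 to 14.6 ± 1.07 FPKM (mean ± SD, n = 3; log2 fold change 0.55, adjusted p = 0.00326). In siDDX1 cells it rose from 9.60 ± 0.669 to 15.3 ± 1.41 FPKM (0.62, adjusted p = 0.00751), and both calls were kept without any 1 library. Crebbp, a histone acetyltransferase that serves as a coactivator, fell in siEXOSC3 cells by 0.53 on the log2 scale (adjusted p = 0.00329), and in siDDX1 cells its log2 fold change was -0.14 (adjusted p = 0.207). Kat2b, another acetyltransferase, fell in siDDX1 cells by 0.47 (adjusted p = 0.0149), a call lost without siDDX1 replicates 1 (0.0508) or 2 (0.0614) and without scramble replicates 1 (0.0829) or 3 (0.0588), and in siEXOSC3 cells its log2 fold change was -0.01. The other coactivators or corepressors that fell in siEXOSC3 cells were Ep300 (log2 fold change -0.31, adjusted p = 0.00773), Maml1 (log2 fold change -0.40, adjusted p = 0.0104) and Spen (log2 fold change -0.38, adjusted p = 0.00603). These 3 calls were kept without any 1 library. Kat2b overlaps Gm6919 on the opposite strand.

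The start regions of genes on this axis show how the pathway's own binding letters are placed. Sequences of the 250 bases before annotated starts came from RefSeq on GRCm38.p6, another build than that of the expression tables, and 7 of the 9 genes matched, with 9 windows. Hes1 and Hey1 were not matched. The windows were searched on both strands for TGGGAA, the core of the RBPJ site, and for CACGNG, the class C E-box that HES and HEY proteins bind. TGGGAA was in 0 of the 9 windows, and it was in 21.6% of the 32851 windows of this length over all genes. CACGNG was in 5 of the 9 windows, from the 4 genes Notch2, Dll1, Jag1 and Hes6, and in 23.5% of all windows. Any part of these letters in the changes above was not tested. Dll1 and Hes6 have 2 windows each, which do not overlap, and a match is a description of letters, not a bound site.

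Of the genes shown here, Rbpj and Hes5 hold TGGGAA on opposite strands in the same window, and Notch2, the member that fell, holds a single CACGNG. They are printed 5′ to 3′ on the strand of the gene, and capitals mark TGGGAA or its complement in Rbpj and Hes5 and CACGNG in Notch2. The windows are chr5:53590096-53590345 for Rbpj, chr4:154960673-154960922 for Hes5 and chr3:98013288-98013537 for Notch2, all on the plus strand.
Rbpj: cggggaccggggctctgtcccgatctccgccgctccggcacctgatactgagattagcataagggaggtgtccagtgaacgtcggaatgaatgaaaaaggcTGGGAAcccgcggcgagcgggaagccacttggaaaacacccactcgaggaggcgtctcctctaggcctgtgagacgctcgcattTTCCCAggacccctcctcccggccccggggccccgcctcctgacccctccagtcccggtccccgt
Hes5: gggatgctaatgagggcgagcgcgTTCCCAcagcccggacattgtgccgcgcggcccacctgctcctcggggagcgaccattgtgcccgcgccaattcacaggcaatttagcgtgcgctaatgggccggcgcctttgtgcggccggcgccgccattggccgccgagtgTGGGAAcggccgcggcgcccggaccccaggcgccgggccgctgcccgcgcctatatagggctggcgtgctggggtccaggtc
Notch2: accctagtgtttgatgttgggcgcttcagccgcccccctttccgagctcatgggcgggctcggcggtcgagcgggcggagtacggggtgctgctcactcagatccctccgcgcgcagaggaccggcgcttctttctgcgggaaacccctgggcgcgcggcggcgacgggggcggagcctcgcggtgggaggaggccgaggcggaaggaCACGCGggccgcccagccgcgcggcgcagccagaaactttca
The matches in Rbpj begin 149 and 65 bases before the start, those in Hes5 226 and 82 bases before it, and that in Notch2 42 bases before it. E-boxes (CANNTG, 66.2% of all windows) were in 6 of the 9 windows and N-boxes (CACNAG, 36.7%) in 3, and the window of Neurog2 held none of the 4 motifs.

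Hes5, a Notch target that is prominent in neural progenitors, was close to silent. It was at 0.177, 0.0991 and 0.221 FPKM in siEXOSC3 cells against 0.290, 0.469 and 0.130 in scramble. The siDDX1 libraries held it at 0.197, 0.184 and 0.159 FPKM against 0.288, 0.466 and 0.128. The groups overlapped in both tables, and the steps give 2 to 9 fragments per library. Hes5 overlaps RP24-89N4.5 on the opposite strand. Besides Hey1, only Hey2 and Bcl6 of the 10 Notch target genes listed were tested in either table, and 0 of the 3 passed in either comparison, beside 16.7 and 15.7% of all tested genes that rose and fell in siEXOSC3 cells and 5.61 and 5.03% in siDDX1 cells. Hey2 passed the filter through only 1 group in each table.

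Receptors are glycosylated on their way to the surface and cleaved before and after they bind a ligand. In the list for glycosylation and cleavage 3 of 14 tested genes rose in siEXOSC3 cells and 0 fell, beside 16.7 and 15.7% of all tested genes. Of the 3, Mfng passed the filter only through the siEXOSC3 libraries and was not tested in siDDX1 cells, and without it 2 of 13 rose. Psen2, a catalytic subunit of the gamma-secretase that frees the intracellular part of Notch, rose from 1.67 ± 0.262 to 3.45 ± 0.769 FPKM (log2 fold change 0.73, adjusted p = 0.00771). Mfng, a Fringe glycosyltransferase that changes which ligands a receptor answers, was at 0.636 ± 0.211 FPKM in scramble and at 1.40 ± 0.226 in siEXOSC3 cells (0.56, adjusted p = 0.0195). Its call was lost without scramble replicate 1 (adjusted p = 0.05) or 2 (0.0626) and under quantile normalization (0.0731). Without any 1 siEXOSC3 library its mean was under 1 FPKM and it was not tested.

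Furin, the protease that cuts Notch receptors on their way to the surface, rose by 0.34 on the log2 scale (adjusted p = 0.0181) in siEXOSC3 cells, a call lost without siEXOSC3 replicate 1 (0.0512) and without scramble replicates 1 (0.0644), 2 (0.0624) or 3 (0.0542). In siDDX1 cells 0 genes of this list rose and 1 of 13 fell, beside 5.03% of all tested genes that fell. That gene was Adam10, which makes the cut that follows ligand binding. It went from 35.9 ± 1.05 to 30.5 ± 0.232 FPKM (log2 fold change -0.23, adjusted p = 0.0388), and its call was lost without siDDX1 replicates 1 (0.091) or 2 (0.129) and without scramble replicates 1 (0.159), 2 (0.0851) or 3 (0.133), under median centring (0.05) and without the intensity trend (0.0606). In siEXOSC3 cells Adam10 had a log2 fold change of 0.09 (adjusted p = 0.3).

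Among the 12 tested genes for endocytosis and ubiquitination, 2 rose and 3 fell in siEXOSC3 cells, beside 16.7 and 15.7% of all tested genes, and 0 passed in siDDX1 cells, beside 5.61 and 5.03%. Neurl1a, a ubiquitin ligase that acts on ligands, was at 11.1, 11.2 and 12.4 FPKM in siEXOSC3 cells against 5.65, 6.42 and 6.12 in scramble (log2 fold change 0.83, SE 0.0814, adjusted p = 7.77e-04). Its groups were far apart, and the call was kept without any 1 library. Dtx4 and Dtx2, ligases of the Deltex family that act on receptors, fell by 0.46 (adjusted p = 0.0131) and by 0.37 (adjusted p = 0.025). The call of Dtx4 was lost without scramble replicates 1 (0.0513) or 3 (0.0548), and that of Dtx2 without siEXOSC3 replicate 1 (0.0867), without scramble replicates 1 (0.0576), 2 (0.0637) or 3 (0.093) and with no filter (0.0579). The others were Neurl1b (log2 fold change 0.36, adjusted p = 0.0306) and Itch (log2 fold change -0.36, adjusted p = 0.00969). The call of Neurl1b was lost without siEXOSC3 replicate 1 (0.0893), without scramble replicates 1 (0.0803), 2 (0.05) or 3 (0.0989), under quantile normalization (0.16) and with no filter (0.0523), and that of Itch without scramble replicate 1 (0.0516). In siDDX1 cells Itch was called only without siDDX1 replicate 3 (0.0348).

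Groucho proteins are corepressors that HES factors recruit. In siEXOSC3 cells Tle6, a short member of the family, rose from 3.86 ± 0.649 to 7.56 ± 0.822 FPKM (log2 fold change 0.82, adjusted p = 0.00279), and Tle3 fell from 35.9 ± 1.80 to 27.2 ± 1.65 FPKM (-0.39, adjusted p = 0.00649), the 1 gene in each direction among 4 tested, beside 16.7 and 15.7% of all tested genes. Both calls were kept without any 1 library. In siDDX1 cells 0 of the 4 tested Groucho genes passed in either direction, beside 5.61 and 5.03%.

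**Figure D4:**
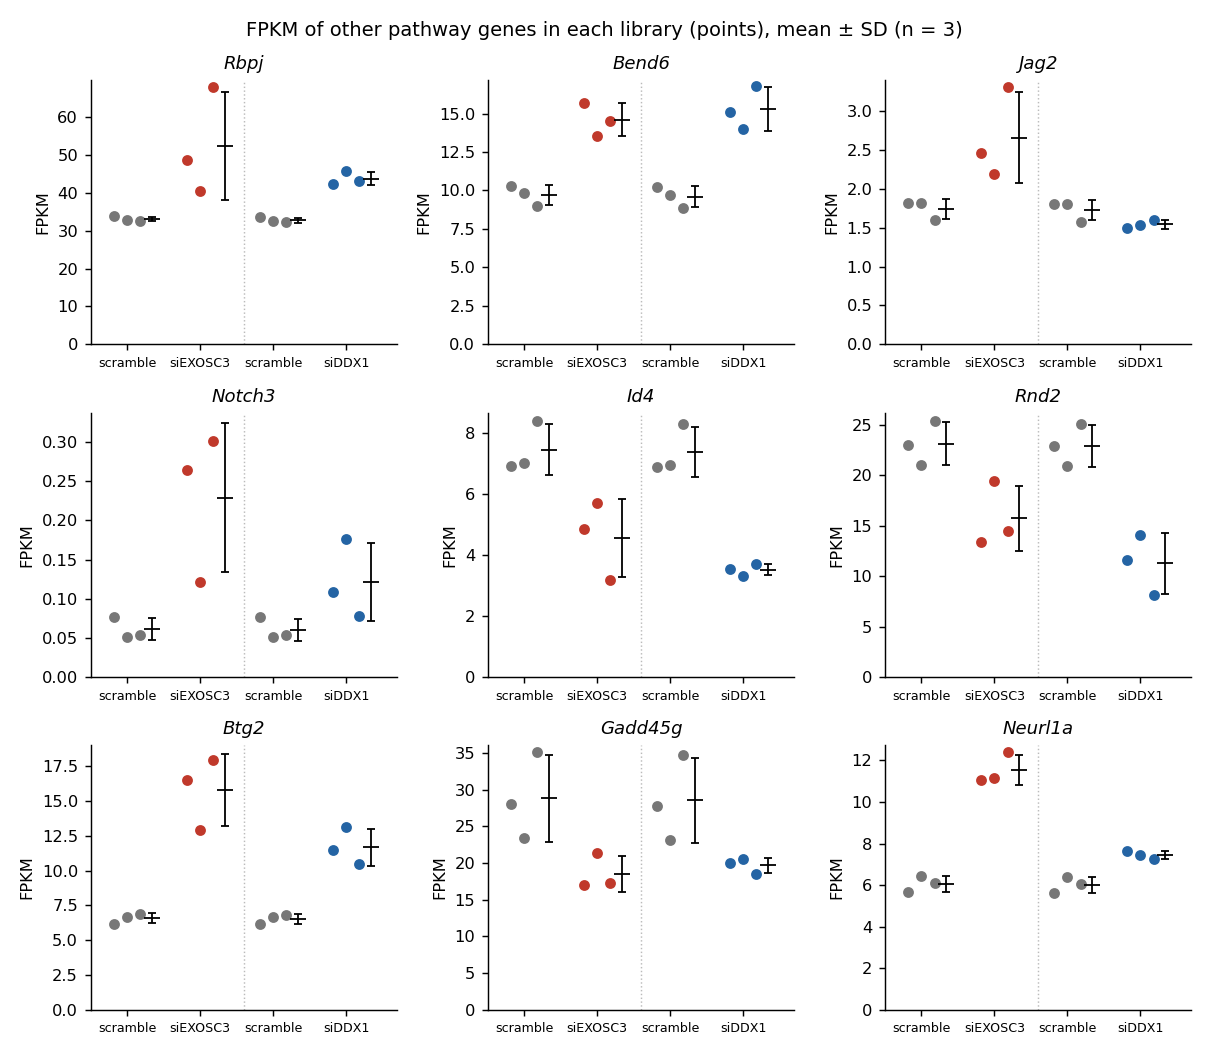
FPKM of 9 genes that act with the members, by library (linear axes from 0), with the siEXOSC3 table on the left and the siDDX1 table on the right of each panel. Points are libraries, and the black mark with its bar is the mean ± SD of 3 libraries. Rbpj, Bend6 and Btg2 lie above scramble and Id4, Rnd2 and Gadd45g below it in both tables, and Neurl1a lies far above scramble in siEXOSC3 cells.

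The listed proneural transcription factors other than Atoh8 were low in these cells, each with a mean under 1 FPKM. Atoh8 was not, and stayed in the test even at a minimum mean of 5 FPKM. In scramble the listed factors summed to 6.70 to 9.42 FPKM in the siEXOSC3 table. Of the 14 listed factors 1, Atoh8, passed the filter, and it was not called in either table in the test described above (log2 fold change -0.64 with adjusted p = 0.0662 in siEXOSC3 cells and -0.43 with adjusted p = 0.17 in siDDX1 cells). It was called lower without siEXOSC3 replicate 2 (adjusted p = 0.00282) and without siDDX1 replicate 3 (0.00419). Of the 14, 5 were at 0 in all 6 libraries of the siEXOSC3 table and 7 in those of the siDDX1 table.

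Id proteins hold back proneural factors by binding the E proteins that these need as partners, and some Id genes respond to Notch and to BMP signals. In siEXOSC3 cells 2 of the 7 tested genes of this list rose and 1 fell, beside 16.7 and 15.7% of all tested genes. Id2 was at 29.7, 27.1 and 30.4 FPKM against 15.4, 19.8 and 16.9 in scramble (log2 fold change 0.72, SE 0.0966, adjusted p = 0.00232). Id1 rose from 82.5 ± 6.75 to 108 ± 4.47 FPKM (0.39, adjusted p = 0.0075). Both calls were kept without any 1 library.

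In siDDX1 cells 0 of the 7 rose and 2 fell, Id3 and Id4, beside 5.61 and 5.03% of all tested genes. Id4 was at 3.55, 3.33 and 3.71 FPKM against 6.88, 6.96 and 8.32, with a mean of 47.7% of scramble (log2 fold change -0.89, SE 0.0941, adjusted p = 0.00407), and the call was kept without any 1 library. Id3 fell from 34.5 ± 5.01 to 23.9 ± 0.177 FPKM (-0.51, adjusted p = 0.0188), a call lost without siDDX1 replicates 1 (0.0575) or 2 (0.066) and without scramble replicates 1 (0.0877) or 3 (0.0602). Id1 and Id2 had log2 fold changes of -0.13 and -0.03 in siDDX1 cells (adjusted p = 0.635 and 0.903).

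Id4 also fell in siEXOSC3 cells, where it was at 4.85, 5.70 and 3.17 FPKM against 6.94, 7.02 and 8.42 (log2 fold change -0.62, SE 0.167, adjusted p = 0.0232). That call was lost without siEXOSC3 replicate 1 (adjusted p = 0.0544), without scramble replicates 1 (0.0607), 2 (0.0546) or 3 (0.0909) and with no filter (0.0636). Id4 overlaps A330033J07Rik on the opposite strand, and its reads cannot be told apart from those of that gene.

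Among genes that proneural factors are known to induce, 2 of the 13 tested rose and 3 fell in siEXOSC3 cells, beside 16.7 and 15.7% of all tested genes. In siDDX1 cells 1 of 11 rose and 2 fell, beside 5.61 and 5.03%. Btg2, an antiproliferative gene that marks neurogenic divisions and that p53 also induces, was at 16.5, 12.9 and 17.97 FPKM in siEXOSC3 cells against 6.20, 6.70 and 6.88 (log2 fold change 1.13, SE 0.116, adjusted p = 8.93e-04). It stood in siDDX1 cells at 11.5, 13.1 and 10.5 FPKM against 6.15, 6.65 and 6.80 (0.75, SE 0.0927, adjusted p = 0.00632). Both calls were kept without any 1 library.

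Rnd2, a small GTPase of migrating neurons that NEUROG2 is known to induce, fell in both comparisons. It was at 13.4, 19.4 and 14.5 FPKM in siEXOSC3 cells against 23.0, 21.0 and 25.3 (log2 fold change -0.54, SE 0.132, adjusted p = 0.0171), and at 11.6, 14.1 and 8.11 FPKM in siDDX1 cells against 22.9, 20.9 and 25.0 (-0.99, SE 0.167, adjusted p = 0.0128). The first call was lost without siEXOSC3 replicate 1 (0.0627) and without scramble replicates 1 (0.0601) or 3 (0.0712), and the second without scramble replicates 1 (0.0669) or 3 (0.0673). Rnd2 overlaps Vat1 on the opposite strand. The other genes of the list that passed in siEXOSC3 cells were Sox11 (log2 fold change 0.33, adjusted p = 0.025) and Cdc25b (log2 fold change -0.28, adjusted p = 0.0402). The call of Sox11 was lost without siEXOSC3 replicate 1 (0.0645) and without scramble replicates 1 (0.1), 2 (0.0661) or 3 (0.0616). That of Cdc25b was lost without siEXOSC3 replicates 1 (0.104) or 3 (0.0779), without scramble replicates 1 (0.127) or 2 (0.133), with no filter (0.0704), under median centring (0.0539) and under quantile normalization (0.0544).

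Gadd45g, a stress and growth arrest gene that follows proneural factors in the embryo, fell from 28.8 ± 5.91 to 18.6 ± 2.46 FPKM in siEXOSC3 cells (log2 fold change -0.60, adjusted p = 0.0169). In siDDX1 cells it fell from 28.6 ± 5.79 to 19.7 ± 1.05 FPKM (-0.50, adjusted p = 0.0458). The first call was lost without siEXOSC3 replicate 1 (0.0648) and without scramble replicates 1 (0.0563) or 3 (0.0534), and the second without siDDX1 replicates 1 (0.107) or 2 (0.105) and without scramble replicates 1 (0.145) or 3 (0.115). It was also lost with no filter (0.1), under median centring (0.0517) or quantile normalization (0.0534), without the intensity trend (0.0602) and with a lower minimum and pseudocount of 0.1 (0.0535).

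Of the 29 pathway genes and markers outside the 9 that are named above as passing in siEXOSC3 cells, 14 kept their call without any 1 library, and these were Psen2, Neurl1a, Bend6, Crebbp, Ep300, Maml1, Spen, Tle6, Tle3, Id1, Id2, Btg2, Chgb and Pecam1. Of the 10 that passed in siDDX1 cells, 3 did, and these were Bend6, Id4 and Btg2. In bulk libraries a change in transcript per cell and a change in the share of cells that hold the transcript cannot be told apart.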

How the data were processed

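The 9 libraries came from N2A cells that received scramble siRNA or siRNA against EXOSC3 or DDX1. Total RNA was isolated with TRIzol, depleted of ribosomal RNA and sequenced from nondirectional libraries (paired reads). Reads were mapped by the authors to mm9 with TopHat2 version 2.1.0. The authors then ran Cuffdiff version 2.2.1 on each knockdown against scramble, and deposited FPKM per gene and library. The annotation and the library normalization of Cuffdiff are not given in the sources used here. The labels number 3 replicates per condition and the methods give separate plates, so that p-values measure the spread between plates of 1 line. All 6 columns of each of the 2 tables matched a sample, with 0 columns left over.

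Log2(FPKM + 1) was computed from the deposited FPKM where a gene's mean reached 1. The test was that of limma (version 3.58.1, R version 4.3.3: lmFit, eBayes with an intensity trend, no covariates, two-sided, Benjamini-Hochberg over all genes tested, threshold 0.05). The fit was first tested on simulated data. Single genes were tested by exact permutation over libraries. Positions came from GENCODE vM1 on NCBIM37, the assembly of mm9, and start windows from RefSeq on GRCm38.p6. Plots were made in matplotlib 3.10.9.

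The members, lists and naming rule were chosen with earlier results of these data known. Named were the 9 members, Rbpj, Hes5, Notch3, the siRNA targets, up to 3 called genes with the largest change per list and table, and the 3 tested genes most like Hes1 and Neurog2. Atoh8, Hey2, Bcl6, Neurl1b, Itch, Ep300, Maml1, Spen, Sox11, Cdc25b, Notch4, Aph1b, Tle1, Cbfa2t3 and the single cell type markers given fall outside that rule and were chosen after their values were seen. A gene of the naming rule and a marker are not reported here. Of the 145 list entries, 144 were in the tables. Also tried were no filter or a minimum mean of 5, a pseudocount of 0.1, median centring, quantile normalization, a fit lacking the intensity trend, a block on replicate number, leaving out each library, and, added after seeing the data, a mean of at least 0.1 with a pseudocount of 0.1.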

Additional observations from a re-analysis of the deposited data

Results flagged for a closer look

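The members, the other pathway genes and the markers were examined where their mean was at least 0.1 FPKM in each table. In 10 of the members, pathway genes and markers named in the text every library of 1 knockdown moved one way from the mean of scramble and every library of the other knockdown moved the opposite way. With the 4 further markers given at the end, 14 of 109 genes of the lists did so, or 12.8%, and over all genes with such a mean 1099 of 13527 did, or 8.12%, which are counts and not a test. Values are given as percent of the scramble mean, first in siEXOSC3 cells and then in siDDX1 cells. Notch2 was at 74.9% and 108%, and Hes1 was at 231% and 51.3%. Among the other receptors and ligands, Notch4 was at 152% and 55.1%, and Jag2 was at 152% and 89.3%. For genes of receptor cleavage, Adam10 was at 107% and 85.1%, and Aph1b was at 126% and 83.3%. The corepressor Tle1 was at 88.8% and 120%. Of the proneural target genes, Cbfa2t3 was at 137% and 79.8%, and Cdc25b was at 81.3% and 109%. Vim was at 124% and 88.0%. A further 4 neuroblastoma markers lay at 151 to 245% and at 85.8 to 88.6%. Each of these differences between the knockdowns was not tested, because the tables were scaled separately and share their scramble libraries.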

How the results depend on the processing

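Of the results for single genes under the settings that keep all libraries, 463 kept their direction and their side of the threshold, 31 lost their call, 2 gained one, 9 moved and 2 reversed. With a library left out, 269 kept both, 81 lost their call, 6 gained one (Hey1 and Atoh8 in each table, Itch and Vim in siDDX1 cells) and 7 reversed. The reversals were Ddx1 in siEXOSC3 cells (log2 fold change -0.0058 under quantile normalization, and from -0.045 to 0.040 without a library), Hes6 in siDDX1 cells (from -0.075 to 0.079), and, in siDDX1 cells, Ep300 (0.0095 under median centring), Neurl1b (from -0.014 to 0.113) and Sox11 (from -0.095 to 0.138). Notch2 was the 1 member that fell in siEXOSC3 cells, and 0 members fell with a minimum mean of 5 FPKM, which removes it from the test, with no filter, or with the replicate block. With a minimum of 0.1 FPKM and a pseudocount of 0.1, added after seeing the data, 1 member rose in siEXOSC3 cells, Hes1. With no filter, 387 genes rose and 330 fell in siDDX1 cells, against 623 and 559. Without 1 library, 1027 to 2379 genes rose and 583 to 2508 fell in siEXOSC3 cells (1877 and 1767 with all), and 95 to 1818 rose and 58 to 1706 fell in siDDX1 cells, with the highest counts without siEXOSC3 replicate 2 and siDDX1 replicate 3. The members that rose or fell numbered 0 to 1 and 0 to 1 in siEXOSC3 cells and 0 to 1 and 0 in siDDX1 cells, and the other pathway genes 7 to 15 and 5 to 20 in siEXOSC3 cells and 2 to 6 and 1 to 12 in siDDX1 cells. The cause of these shifts was not tested.

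Deviations of same-numbered libraries from their group means correlated at 0.0346, -0.31 and -0.126 in the siEXOSC3 table and at -0.0121, 0.379 and 0.372 in the siDDX1 table. In the siEXOSC3 table no siEXOSC3 library correlated best with its own number. In the siDDX1 table, siDDX1 replicates 2 and 3 did, while replicate 1 did not. Crossed with scramble replicates 3 and 2, siDDX1 replicates 2 and 3 were at -0.376 and -0.372. With the replicate number as a block, 1059 genes fell in siEXOSC3 cells against 1767, and 1085 rose in siDDX1 cells against 623. Under the block Notch2 (adjusted p = 0.0622), Jag2 (0.0884) Id4 (0.0556), Neurl1b (0.058), Sox11 (0.0522) and Msi1 (0.0691) in siEXOSC3 cells were not called, no other call of a pathway gene or marker named in the text was lost, and Atoh8 was called in siDDX1 cells (0.0444). Not every library correlated best with its own number.

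Depth limits Dll3, Jag1, Neurog2 and Hes5, each with 9 fragments or fewer in any library by its steps.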
